A study of Mus musculus with 2 samples.

Results

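The TNF receptor family genes described here are 9 genes of CD4 T cells. They are the receptor genes Tnfrsf4, Tnfrsf9, Tnfrsf18, Tnfrsf1b and Cd27 and the ligand genes Tnfsf8, Tnfsf11, Cd40lg and Tnf, chosen by symbol out of the 32285 genes counted. Their UMI counts are described over barcodes with at least 500 UMIs, at least 250 genes and at most 10% mitochondrial UMIs. Receptors of this family are membrane proteins that bind trimeric ligands, mostly carried on the surface of a neighbouring cell, and pass the signal through TRAF adaptor proteins to NF-κB and related pathways. On CD4 T cells the receptors act as costimulatory receptors, several of which appear or increase after antigen contact. The ligands let a T cell act on B cells, dendritic cells, macrophages and other T cells. Several of the receptors are also known as markers of regulatory T cells (Tregs), the Foxp3-expressing cells that restrain other T cells.

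Donors were wild-type mice sensitised with house dust mite, whose allergens cause type 2 inflammation of the airways, on day 0 and again on days 7 to 11. Their lung CD4 T cells were taken on day 14, stained with Cell Trace Violet (a dye that fades as cells divide) and transferred. Recipients were C57BL/6 mice (WT host) or mice without MARCH1 (MARCH1-/- host), and all were challenged with house dust mite. MARCH1 is a ubiquitin ligase by which antigen-presenting cells remove MHC class II and CD86 from their surface. Donor cells with little dye left were sorted from recipient lungs on day 4. Each group is 1 library of single-cell RNA, so every difference by host below is between 2 libraries, has no replicate check and carries no p-value. The number of mice behind a library is not stated in the labels.

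The donor cells carried March1 in both groups, so the deletion could not be checked in them, and 0 March1 UMIs were counted in either library. A UMI, a unique molecular identifier, is the tag that marks 1 captured transcript, counted once whatever the transcript's length. The WT host library gave 352 cells with a median of 6086.5 UMIs, and the MARCH1-/- host library 156 cells with a median of 8017 UMIs. All 12 CD4 T cell markers were detected in every class of cells in both libraries, the 2 CD8 T cell markers summed to 11.7 and 10.2 CPM (UMIs of a gene per 1000000 UMIs of the cells compared) with Cd8a at 0, and the 5 natural killer cell markers summed to 3 UMIs and 0. B cell markers summed to 22.9 CPM and 104 CPM in the WT and MARCH1-/- host libraries, with Ms4a1 and Pax5 at 0 in both. Macrophage and dendritic cell markers summed to 28.8 and 43.2 CPM, with Adgre1, Itgax and Csf1r at 0. The 2 libraries shared 0 cell barcodes.

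Cells were placed in 4 exclusive classes by genes outside the family. Foxp3-positive cells held at least 1 Foxp3 UMI, cycling cells at least 0.3% of their UMIs in a list of 20 cell cycle genes, and type 2 cells at least 2 UMIs of the cytokine genes Il4, Il5 and Il13 together. A cell that met more than 1 of these rules was placed in the first it met, in this order. The remainder are called other cells. The WT host library held 46 Foxp3-positive (13.1%), 60 cycling (17.0%), 78 type 2 (22.2%) and 168 other cells (47.7%). The MARCH1-/- host library held 24 (15.4%), 44 (28.2%), 32 (20.5%) and 56 (35.9%). Median depths differed by class, from 4548.5 UMIs in other cells to 11026 in cycling cells of the WT host and from 5067.5 to 14470.5 in the MARCH1-/- host. Foxp3-positive cells had the highest summed Treg markers of any class, 2967 CPM (WT host) and 3556 CPM (MARCH1-/- host), with Ctla4 at 1087 and 1649 CPM and Ikzf2 at 408 and 426 CPM. The sum includes Foxp3, the gene that set the class, at 266 and 248 CPM in these cells and at 0 elsewhere by the rule. Ctla4 was at 524 and 1062 CPM and Ikzf2 at 128 and 230 CPM in other cells. Il2ra, also on that list, was at 466 and 350 CPM in Foxp3-positive cells and at 542 and 169 CPM in type 2 cells. Il1rl1, on the list as well, was lower in Foxp3-positive than in type 2 cells of both libraries. It was at 175 and 182 CPM in the former and at 532 and 536 CPM in the latter. Of the Foxp3-positive cells, 22 of the 46 and 10 of the 24 rested on 1 Foxp3 UMI. Over all cells, 27 of 352 and 9 of 156 lay within 0.1 percentage points of the cycling cut.

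Of the 9 genes, 5 lie on chromosome 4 (coordinates are GRCm38). Tnfrsf4 (chr4:156013843-156016612) and Tnfrsf18 (chr4:156026164-156028895) are on the plus strand and 9551 bases apart. Tnfrsf9 is at chr4:150914562-150946102, Tnfrsf1b at chr4:145213463-145246870 and Tnfsf8 at chr4:63831308-63861347. The others are Cd27 (chr6:125232622-125237010), Tnfsf11 (chr14:78277445-78308043), Cd40lg (chrX:57212143-57224042) and Tnf (chr17:35199381-35202007), the last lying 1157 bases from Lta. All 9 are annotated as protein coding.

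The windows of 250 bases before the RefSeq starts of 4 genes are printed, of Tnfsf8 and Tnfsf11, the ligands lower in Foxp3-positive cells, of Cd27, higher by host, and of Tnfrsf4, the receptor with the most UMIs. They come from RefSeq on GRCm38.p6, read 5′ to 3′ on the gene's strand, and any part inside an annotated exon of the gene is left off. Capitals mark matches, on either strand, to the NF-κB-like motif GGGNNNNNCC or the AP-1-like motif TGANTCA.
Tnfsf8 (chr4:63861348-63861534, minus strand): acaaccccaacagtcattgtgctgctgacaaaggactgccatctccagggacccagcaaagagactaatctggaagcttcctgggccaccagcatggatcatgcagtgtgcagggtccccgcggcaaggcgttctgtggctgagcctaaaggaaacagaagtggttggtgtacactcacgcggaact
Tnfsf11 (chr14:78308044-78308293, minus strand): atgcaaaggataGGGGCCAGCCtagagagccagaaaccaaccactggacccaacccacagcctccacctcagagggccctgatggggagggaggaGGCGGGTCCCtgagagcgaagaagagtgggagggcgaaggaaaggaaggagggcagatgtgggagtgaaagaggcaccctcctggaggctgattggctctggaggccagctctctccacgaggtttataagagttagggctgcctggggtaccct
Cd27 (chr6:125237028-125237277, minus strand): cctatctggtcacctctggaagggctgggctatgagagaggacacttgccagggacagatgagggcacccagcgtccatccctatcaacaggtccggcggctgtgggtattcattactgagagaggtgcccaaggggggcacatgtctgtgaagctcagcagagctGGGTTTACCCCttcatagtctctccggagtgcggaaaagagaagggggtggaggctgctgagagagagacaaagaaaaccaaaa
Tnfrsf4 (chr4:156013445-156013694, plus strand): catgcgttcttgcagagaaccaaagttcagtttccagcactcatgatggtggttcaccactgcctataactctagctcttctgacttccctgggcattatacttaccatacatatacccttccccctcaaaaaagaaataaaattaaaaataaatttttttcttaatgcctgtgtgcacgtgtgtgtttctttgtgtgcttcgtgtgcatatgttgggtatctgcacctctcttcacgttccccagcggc
Tnfsf11 held 2 separate GGGNNNNNCC matches and Cd27 2 that overlap, while the Tnfsf8 and Tnfrsf4 windows held neither motif. RefSeq entries were matched for 8 of the 9 genes and gave 9 windows, since Tnfrsf9 has 2 starts. GGGNNNNNCC was in 5 of these 9 windows against 45.8% of all 32851 promoter windows, and TGANTCA in 1 of 9 against 6.75%. A match describes the letters only.

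Receptor transcripts dominated in Foxp3-positive cells and ligand transcripts were scarce there. The 5 receptor genes summed to 912 CPM in the Foxp3-positive cells of the WT host and 1233 CPM in those of the MARCH1-/- host. The 4 ligand genes summed to 108 and 53.2 CPM in the same cells. Type 2 cells had more ligand than receptor transcripts in the WT host, with 592 CPM of receptors and 1485 CPM of ligands, and even in the MARCH1-/- host, with 777 and 758 CPM. Other cells had 670 and 951 CPM of receptors and ligands in the WT host and 893 and 611 CPM in the MARCH1-/- host. Cycling cells had the lowest receptor sums, 409 and 565 CPM, with ligand sums of 586 and 400 CPM. At least 1 receptor UMI was found in 43 of 46 and 24 of 24 Foxp3-positive cells, and at least 1 ligand UMI in 18 of 46 and 4 of 24.

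**Figure D1:**
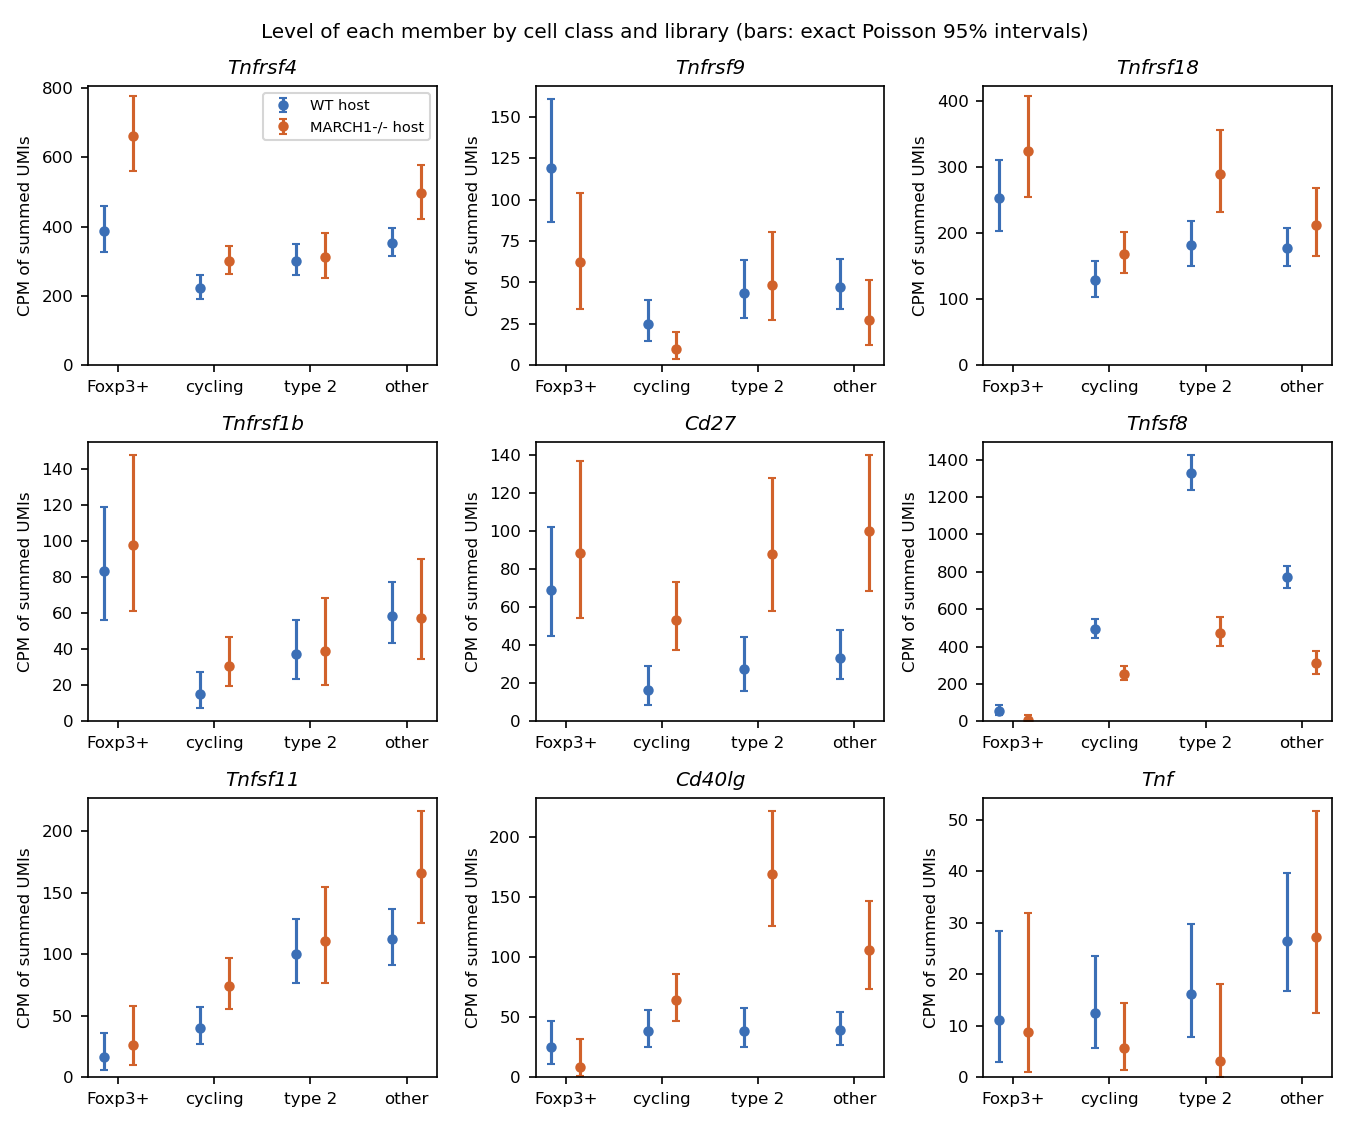
Level of each of the 9 genes (vertical axis, CPM of UMIs summed over the cells of a class) in 4 cell classes (horizontal axis) of the WT host (blue) and MARCH1-/- host (orange) libraries. Bars are exact Poisson 95% intervals, which cover counting error only. Tnfsf8 and Tnfsf11 were lowest in Foxp3-positive cells of both libraries, and Tnfsf8 was lower in the MARCH1-/- host in every class.

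Each class was then set against the other cells of its own library. A gene counts as past the fold when it has at least 50 UMIs in the cells compared and its CPM ratio, relative to that of the median gene, exceeds 1.5-fold. With this rule 4 of the 7 members with 50 UMIs were past the fold in Foxp3-positive cells of the WT host, where 21.3% of all genes were, and 2 of 5 in the MARCH1-/- host, where 25.2% were. All log2 ratios below are of CPM with a 95% counting interval in parentheses. The intervals treat each UMI as an independent draw and leave out variation between cells, so they are too narrow where a few cells hold most of a gene's UMIs.

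The ligand genes Tnfsf8 and Tnfsf11 were the members past the fold in both libraries, each lower in Foxp3-positive than in other cells. Tnfsf8 encodes CD30 ligand (CD153), whose receptor CD30 is the product of Tnfrsf8. It was at 55.4 CPM (20 UMIs, 46 cells) in Foxp3-positive and 772 CPM (672 UMIs, 168 cells) in other cells of the WT host, a log2 ratio of -3.8 (-4.52 to -3.16). For the MARCH1-/- host it stood at 8.87 CPM (2 UMIs, 24 cells) against 312 CPM (103 UMIs, 56 cells), a log2 ratio of -5.14 (-8.20 to -3.25). Only 10 of 46 and 1 of 24 Foxp3-positive cells had a Tnfsf8 UMI, at median depths of 6596.5 and 6400.5 UMIs. In other cells, which were shallower, 95 of 168 and 23 of 56 had one. Barcodes under 100 UMIs had Tnfsf8 at 303 and 187 CPM, above the level in Foxp3-positive cells.

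Tnfsf11 encodes RANK ligand, known from bone and lymphoid tissue and from activated T cells. It was at 16.6 CPM (6 UMIs) in Foxp3-positive against 113 CPM (98 UMIs) in other cells of the WT host, a log2 ratio of -2.76 (-4.24 to -1.59). In the MARCH1-/- host the levels were 26.6 CPM (6 UMIs) and 166 CPM (55 UMIs), a log2 ratio of -2.65 (-4.15 to -1.43). The 2 ratios lay close together, but each rests on 6 UMIs in Foxp3-positive cells and has a wide interval. Whether the size differs between the libraries was not tested. Barcodes under 100 UMIs had Tnfsf11 at 81.1 and 132 CPM, above its level in Foxp3-positive cells of either library. The remaining ligands had few UMIs in Foxp3-positive cells. Cd40lg, whose product engages CD40 on B cells and dendritic cells, had 9 UMIs there (WT host) and 2 (MARCH1-/- host), against 34 and 35 UMIs (39.1 and 106 CPM) in other cells. Tnf, the founding inflammatory cytokine of the family, had 4 and 2 UMIs.

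Among receptors, Tnfrsf9 and Cd27 were past the fold in Foxp3-positive cells of the WT host, where 9.71% of genes were higher. Tnfrsf9 (CD137), a costimulatory receptor induced by antigen, was at 119 CPM (43 UMIs) against 47.1 CPM (41 UMIs) in other cells, a log2 ratio of 1.34 (0.69 to 1.99). Its level in the MARCH1-/- host was 62.1 CPM (14 UMIs) against 27.2 CPM (9 UMIs), 1.19 (-0.12 to 2.58), under the 50 UMIs the count asks for. The 5 cells with the most Tnfrsf9 held 67.4% of its UMIs among Foxp3-positive cells of the WT host. Cd27, a costimulatory receptor of naive and memory T cells, was at 69.3 against 33.3 CPM in the WT host, 1.06 (0.22 to 1.88). For the MARCH1-/- host it stood at 88.7 against 99.9 CPM, -0.17 (-1.05 to 0.67), so its order was not kept there.

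Tnfrsf4 (OX40) and Tnfrsf18 (GITR), costimulatory receptors that Tregs carry at rest, were within 1.5-fold of other cells, relative to the median gene, when all Foxp3-positive cells were taken. Tnfrsf4 was at 388 CPM (140 UMIs) against 354 CPM (308 UMIs) in the WT host, 0.13 (-0.17 to 0.43). Its level in the MARCH1-/- host was 661 CPM (149 UMIs) against 496 CPM (164 UMIs), 0.41 (0.08 to 0.74). Barcodes under 100 UMIs had Tnfrsf4 at 547 CPM in the WT host, above both classes, and at 367 CPM in the MARCH1-/- host, below both. Tnfrsf18 was at 252 against 177 CPM and 324 against 212 CPM, log2 ratios of 0.51 (0.12 to 0.89) and 0.61 (0.12 to 1.11). Tnfrsf1b, which encodes TNF receptor 2, was at 83.2 against 58.6 CPM and 97.5 against 57.5 CPM, with 30 and 22 UMIs in Foxp3-positive cells.

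Of the Foxp3-positive cells, 11 of 46 and 6 of 24 were also past the cycling cut. Tnfrsf4 was at 563 CPM in the 35 non-cycling and 173 CPM in the 11 cycling Foxp3-positive cells of the WT host. For the MARCH1-/- host it stood at 1022 CPM in 18 non-cycling and 374 CPM in 6 cycling cells. Tnfrsf18 was at 342 and 142 CPM in the WT host and 451 and 223 CPM in the MARCH1-/- host. When cycling cells were set aside first, Tnfrsf4 and Tnfrsf18 were past the fold over other cells in both libraries, with log2 ratios relative to the median gene of 0.61 and 1.02 for Tnfrsf4 and 0.89 and 1.07 for Tnfrsf18. Of all genes 9.81% and 11.7% were higher in that comparison, and 22.1% and 23.4% past the fold either way. In the WT host 1 Foxp3-positive cell held 42 of the 112 Tnfrsf4 UMIs of the non-cycling cells. Without the cell with the most UMIs in each of the 2 sets compared, the relative log2 ratio of Tnfrsf4 in the WT host was 0.07, inside the fold, while the values were 1.10 for Tnfrsf4 in the MARCH1-/- host and 0.83 and 1.11 for Tnfrsf18. Set against all remaining cells instead, 4 of the 5 receptors were past the fold upward in the WT host, where 9.02% of genes were, Tnfrsf4 being the exception at 0.39 (0.11 to 0.65). The receptors past the fold upward in the MARCH1-/- host were Tnfrsf4, Tnfrsf18 and Tnfrsf1b, where 10.5% of genes were. B cell markers moved with this class too, at 83.2 CPM and 381 CPM against 19.5 and 81.7 CPM in other cells, with Cd79a, Ms4a1 and Pax5 at 0 in Foxp3-positive cells, and macrophage and dendritic cell markers were at 91.5 and 57.6 CPM against 10.3 and 27.2 CPM. Their part in these results was not tested.

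**Figure D2:**
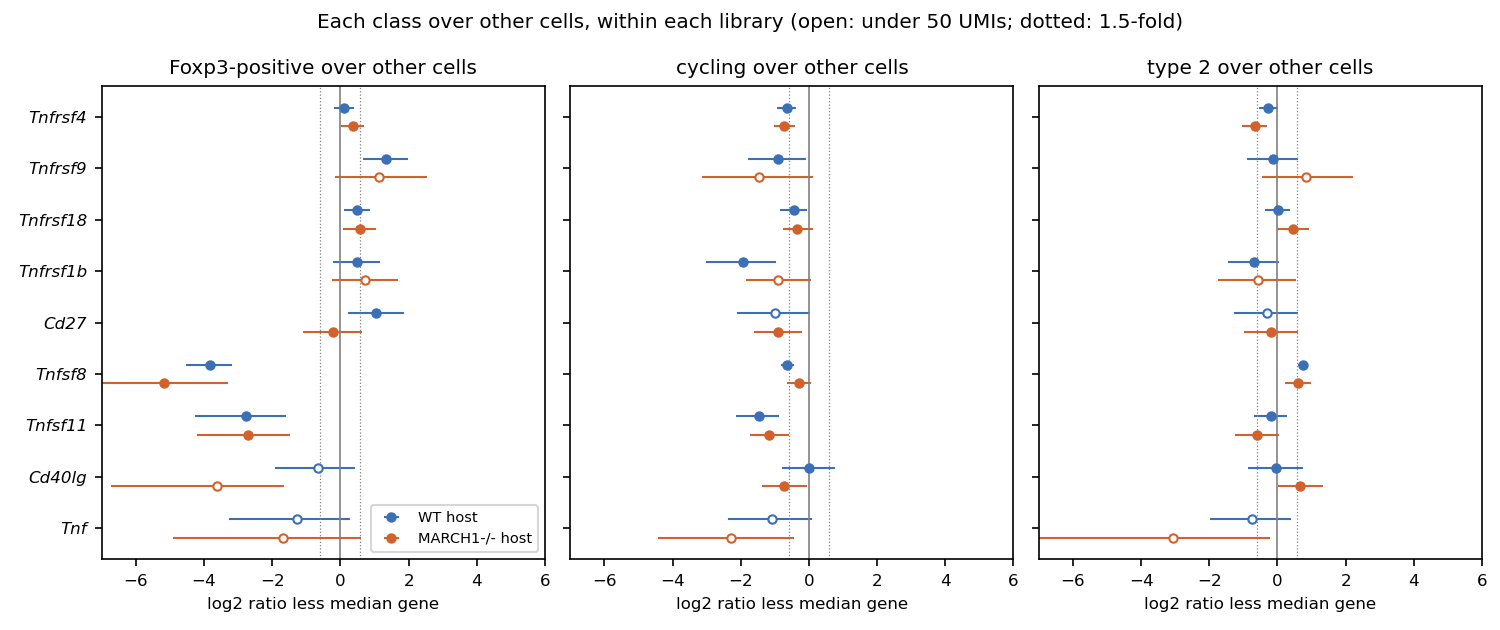
Log2 CPM ratio of Foxp3-positive, cycling and type 2 cells over other cells, less that of the median gene (horizontal axis), for the 9 genes in the WT host (blue) and MARCH1-/- host (orange) libraries. Points are ratios, lines their 95% counting intervals (some run off the axis), open points have under 50 UMIs and dotted lines mark 1.5-fold. Tnfsf8 and Tnfsf11 lie far below the dotted line in Foxp3-positive cells of both libraries.

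Cycling cells, which were deeper, had lower CPM than other cells for most members. In the WT host 5 of the 7 members with 50 UMIs were past the fold, all lower, where 15.4% of all genes were lower. In the MARCH1-/- host 4 of 6 were lower, where 20.2% of genes were. Tnfrsf4 and Tnfsf11 were past the fold in both. Tnfrsf4 was at 224 against 354 CPM in the WT host, a log2 ratio of -0.66 (-0.95 to -0.38), and 302 against 496 CPM in the MARCH1-/- host, -0.72 (-1.02 to -0.41). Uncorrected for depth, its UMIs per cell were not lower. In the WT host 21.7% of cycling and 10.1% of other cells held 5 or more. For the MARCH1-/- host the shares were 27.3% and 16.1%. Tnfsf11 was at 40.0 against 113 CPM and 74.4 against 166 CPM, log2 ratios of -1.49 (-2.14 to -0.88) and -1.16 (-1.73 to -0.59). Tnfrsf1b stood out in the WT host, at 15.2 against 58.6 CPM, -1.95 (-3.04 to -0.99), with 11 UMIs in 60 cycling cells.

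Tnfsf8 was higher in type 2 than in other cells of both libraries. It was at 1329 CPM (819 UMIs, 78 cells) in type 2 and 772 CPM in other cells of the WT host, a log2 ratio of 0.78 (0.63 to 0.93), and at 475 CPM (146 UMIs, 32 cells) against 312 CPM in the MARCH1-/- host, 0.61 (0.23 to 0.99). It was the member past the fold upward in both libraries, where 9.04% and 9.86% of all genes were higher (20.1% and 21.5% past the fold either way), and in the MARCH1-/- host it lay close to the limit. With doublets removed its relative log2 ratio there was 0.44, inside the fold, and with cells thinned 0.83 but under 50 UMIs. A Tnfsf8 UMI was found in 67 of 78 and 22 of 32 type 2 cells, and 49 and 14 of them had 5 or more. Cd40lg was level in the WT host, at 38.9 against 39.1 CPM, and higher in the MARCH1-/- host, at 169 against 106 CPM, 0.67 (0.03 to 1.34). Tnfrsf4 was lower in type 2 than in other cells of the MARCH1-/- host, at 312 against 496 CPM, -0.67 (-1.05 to -0.30), and was at 302 against 354 CPM in the WT host, -0.23 (-0.50 to 0.04). Of 4 receptors and 3 ligands with 50 UMIs in the WT host, 1 ligand was higher and 1 receptor lower (Tnfrsf1b, whose direction reversed when cells were thinned). Of 3 and 3 in the MARCH1-/- host, 2 ligands were higher, and 1 ligand (Tnfsf11) and 1 receptor (Tnfrsf4) lower. Of all genes 11.1% and 11.7% were lower.

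Tnfsf8 was also higher with type 2 cytokine RNA among dividing cells. Of the cycling cells, 28 of 60 and 19 of 44 held at least 2 UMIs of Il4, Il5 and Il13. In the WT host Tnfsf8 was at 800 CPM (300 UMIs) in those cells and 166 CPM (58 UMIs) in the cycling cells without, a log2 ratio of 2.27 (1.86 to 2.70). Its level in the MARCH1-/- host was 320 CPM (113 UMIs) and 192 CPM (69 UMIs), 0.74 (0.29 to 1.19). The ratio was past the fold in both, where 11.9% and 7.78% of all genes were higher, 9.32% lower in either library, and 21.2% and 17.1% past the fold either way.

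By host, over all cells, 5 of the 9 members were past the fold, where 27.7% of the 6762 genes with 50 UMIs were. Cd27 and Cd40lg were higher in the MARCH1-/- host, and Tnfsf8, Tnfrsf9 and Tnf were lower. Upward, 12.6% of all genes were past the fold, and downward 15.1%. The median gene had a log2 ratio of 0.25, and the fold is counted relative to it. The members were chosen with earlier results of these data known, so the count describes them and no more. Other measures moved with the host as well: median depth (6086.5 and 8017 UMIs), the share of the cycling class (17.0% and 28.2%) and the summed B cell markers (22.9 and 104 CPM). So did the type 2 cytokine genes, with Il13 at 786 and 331 CPM, Il4 at 185 and 71.7 CPM and Il5 at 146 and 16.5 CPM. Their part in the host differences was not tested. The cycling class was also left out, which kept the 11 and 6 Foxp3-positive cells past the cycling cut. The log2 ratios relative to the median gene were then -1.75 for Tnfsf8, 1.01 for Cd27, 1.25 for Cd40lg and -0.71 for Tnfrsf9. Tnf was then at -0.78 with 12 and 37 UMIs, under the 50 UMIs the count asks for.

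Tnfsf8 differed most. It was at 727 CPM (1869 UMIs, 352 cells) in the WT host and 275 CPM (433 UMIs, 156 cells) in the MARCH1-/- host, 2.65-fold lower (2.38 to 2.94), a log2 ratio of -1.40 (-1.56 to -1.25). A UMI was found in 61.4% and 44.9% of cells, although the MARCH1-/- host cells were deeper. With every cell thinned to 1000 UMIs the expected shares were 34.7% and 18.5%. The lower level held in the classes with enough UMIs. In type 2 cells it was at 1329 and 475 CPM, a log2 ratio of -1.49 (-1.75 to -1.23). In other cells it was at 772 and 312 CPM, -1.31 (-1.62 to -1.01), and in cycling cells at 494 and 256 CPM, -0.95 (-1.22 to -0.69). Without the 5 cells with the most Tnfsf8 in each library, the ratio in other cells relative to the median gene was -2.35, from -1.55 with them. Among cycling cells the difference lay in those with type 2 cytokine RNA, 800 and 320 CPM, -1.32 (-1.65 to -1.004). Cycling cells without it had 166 and 192 CPM, 0.21 (-0.31 to 0.74). A cut of 2 cytokine UMIs does not make cytokine RNA equal between the libraries. Il13 was at 1134 and 129 CPM in all cycling cells, and at 1889 and 1385 CPM in type 2 cells. Il5 was at 360 and 52.0 CPM in type 2 cells. The part of this in the Tnfsf8 difference was not tested. Whether these subsets differ from each other could not be tested with 1 library per group.

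**Figure D3:**
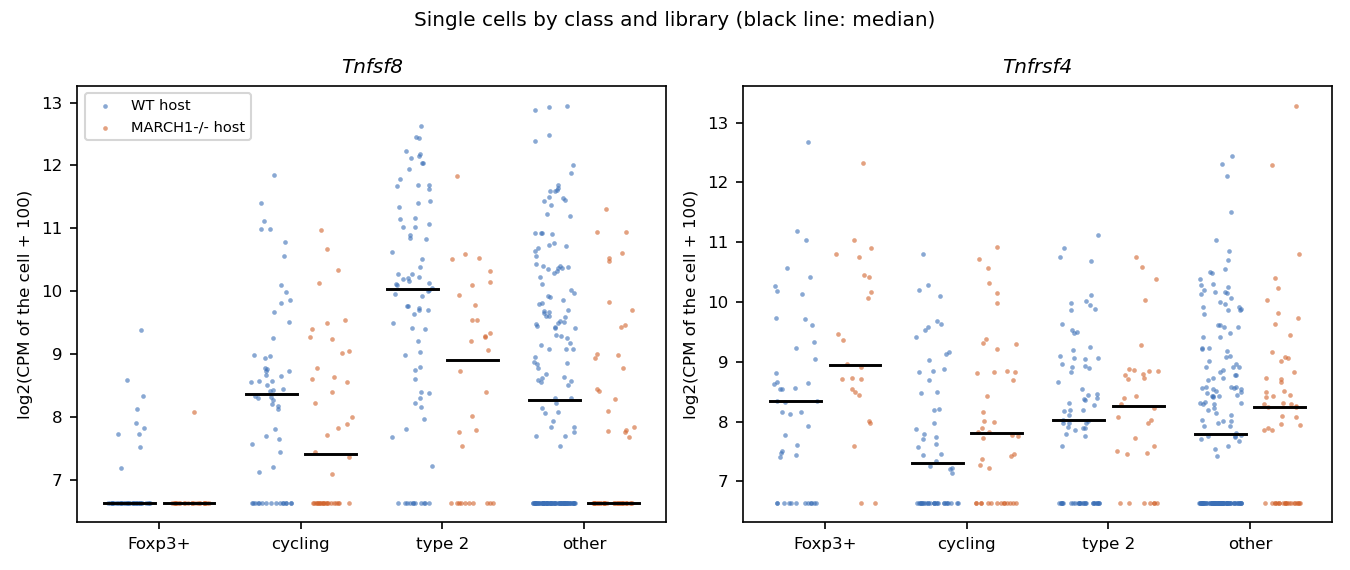
Level in each single cell, as log2 of its CPM plus 100 (vertical axis), of Tnfsf8 (left) and Tnfrsf4 (right), by class (horizontal axis) and library (WT host blue, MARCH1-/- host orange). Each point is 1 cell and black lines are medians; the lowest row of points is cells with no UMI. For Tnfsf8 the median type 2 cell was at 951 CPM (WT host) and 381 CPM (MARCH1-/- host), and the median Foxp3-positive cell at 0 in both.

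Cells differed widely in Tnfsf8. The median cycling cell was at 232 CPM (WT host) and 70.4 CPM (MARCH1-/- host). The median other cell was at 208 CPM and 0 CPM. The highest other cell of the WT host reached 7797 CPM. Cells with 5 or more Tnfsf8 UMIs made up 62.8% (WT host) and 43.8% (MARCH1-/- host) of type 2 cells, and 26.2% and 14.3% of other cells. Among cycling cells they were 18 of 60 and 14 of 44, so the share by this cut was not lower in the MARCH1-/- host there. A cut of 5 UMIs is easier to reach in deeper cells, and these shares are not corrected for depth. Median depth of cycling cells was 11026 UMIs (WT host) and 14470.5 UMIs (MARCH1-/- host).

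Cd27 was higher in the MARCH1-/- host over all cells, at 74.9 CPM (118 UMIs) against 32.3 CPM (83 UMIs), a log2 ratio of 1.21 (0.80 to 1.64). It was also found in more cells, 64 of 156 against 59 of 352, and the expected share at 1000 UMIs was 9.19% in the MARCH1-/- host and 3.801% in the WT host. The difference was seen in cycling cells, 53.4 against 16.6 CPM, 1.69 (0.72 to 2.76), in type 2 cells, 87.8 against 27.6 CPM, 1.67 (0.74 to 2.64), and in other cells, 99.9 against 33.3 CPM, 1.58 (0.82 to 2.35). In Foxp3-positive cells the levels were 88.7 and 69.3 CPM, 0.36 (-0.57 to 1.26). No cell held more than 5 of its UMIs in the MARCH1-/- host or 4 in the WT host, so no few cells held most of it.

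Cd40lg was likewise higher in the MARCH1-/- host, at 85.7 CPM (135 UMIs) against 36.9 CPM (95 UMIs), a log2 ratio of 1.21 (0.82 to 1.61). The class with the widest gap was type 2, at 169 CPM (52 UMIs) against 38.9 CPM (24 UMIs), 2.12 (1.39 to 2.88). There 1 cell of the MARCH1-/- host held 14 UMIs and the top 5 cells 69.2% of them. Without the 5 cells with the most Cd40lg in each library the log2 ratio of type 2 cells relative to the median gene was 1.27, from 1.96 with them, and over all cells 0.74, from 0.96. The expected share of cells with a UMI at 1000 UMIs was 7.52% in the MARCH1-/- host and 3.903% in the WT host. In the 1 thinned draw used for ratios, 8 of 156 and 19 of 341 cells had a UMI (10 and 19 UMIs), the relative log2 ratio over all cells was 0.07, and the gene fell under 50 UMIs, so the call was not kept. In other cells Cd40lg was at 106 against 39.1 CPM, 1.44 (0.71 to 2.16), and in cycling cells at 64.6 against 38.7 CPM, 0.74 (0.03 to 1.47). Foxp3-positive cells had 2 and 9 UMIs, which set no direction.

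Tnfrsf9 was lower in the MARCH1-/- host, at 28.6 CPM (45 UMIs) against 50.2 CPM (129 UMIs), a log2 ratio of -0.81 (-1.34 to -0.31). It was found in 19 of 156 and 65 of 352 cells. In Foxp3-positive cells, where its level was highest in both libraries, it was at 62.1 CPM (14 UMIs) against 119 CPM (43 UMIs), -0.94 (-1.93 to -0.04). In type 2 cells it was at 48.8 CPM (15 UMIs) against 43.8 CPM (27 UMIs), 0.15 (-0.86 to 1.12), so the lower level was not seen there. Tnf was at 10.2 CPM (16 UMIs) against 17.9 CPM (46 UMIs), -0.82 (-1.74 to 0.03). Its interval on the CPM scale reached no difference.

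**Figure D4:**
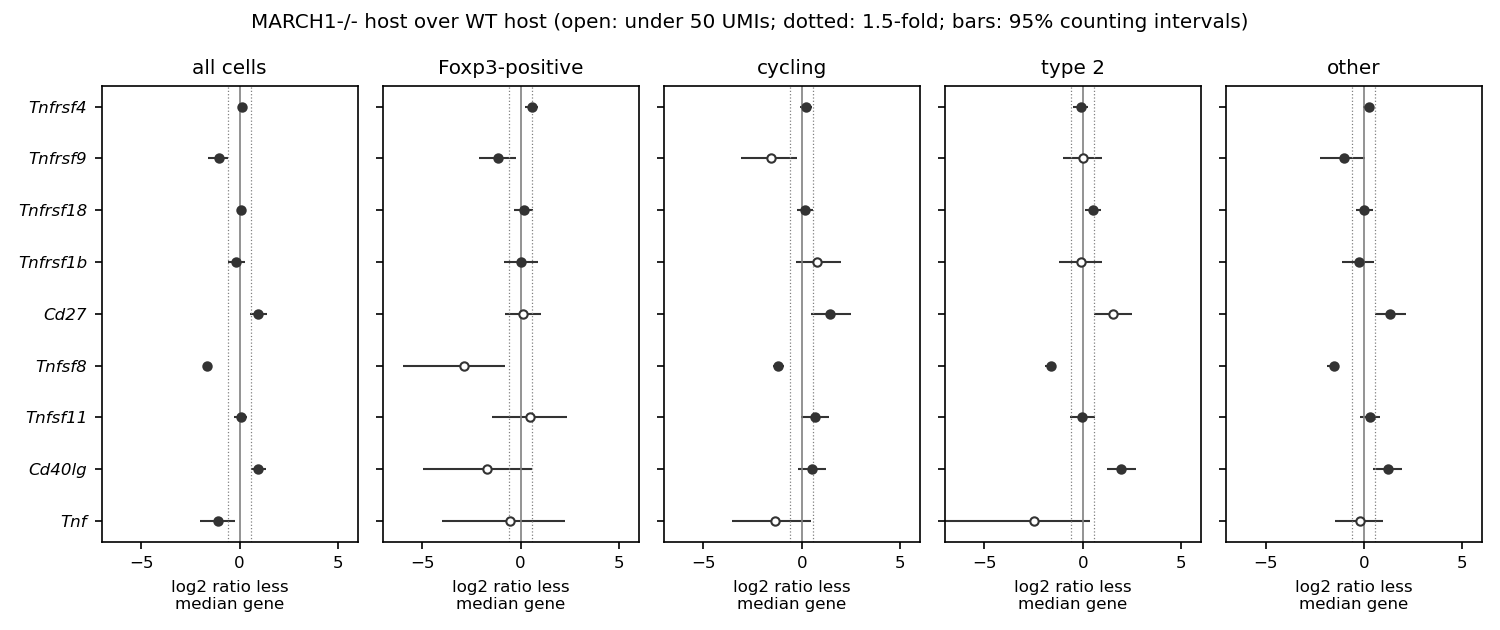
Log2 CPM ratio by host (MARCH1-/- over WT), less that of the median gene (horizontal axis), for the 9 genes in all cells and in each class. Lines are 95% counting intervals, open points have under 50 UMIs and dotted lines mark 1.5-fold. Tnfsf8 lies below the dotted line in all cells, cycling, type 2 and other cells, and Cd27 above it in the same panels, with under 50 UMIs in type 2 cells.

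The other 4 members were within 1.5-fold by host over all cells. Tnfrsf4 was at 396 CPM (624 UMIs) in the MARCH1-/- host and 310 CPM (796 UMIs) in the WT host, 0.36 (0.20 to 0.51). Tnfrsf18 was at 223 and 175 CPM, 0.35 (0.15 to 0.56), Tnfrsf1b at 47.6 and 44.7 CPM, 0.09 (-0.35 to 0.52), and Tnfsf11 at 93.9 and 75.8 CPM, 0.31 (-0.01 to 0.62). The ratios of Tnfrsf4, Tnfrsf18 and Tnfsf11 were near that of the median gene. Within classes, Tnfrsf4 in Foxp3-positive cells was at 661 against 388 CPM, 0.77 (0.42 to 1.11), just inside the fold at 0.56 relative to the median gene. Among those not cycling it was at 1022 against 563 CPM, 0.86 (0.46 to 1.26), past the fold, as were 43.6% of genes in either direction. With 2 Foxp3 UMIs asked for, the log2 ratio of Tnfrsf4 in Foxp3-positive cells relative to the median gene was -0.13, from 0.56 with 1, so its direction by host changed with that cut. In cycling cells without type 2 cytokine RNA, Tnfrsf4 was at 365 against 180 CPM, 1.02 (0.57 to 1.47), and Tnfrsf18 at 195 against 109 CPM, 0.84 (0.25 to 1.45). Both passed the fold there, as did 34.1% of genes in either direction. Tnfsf11 in cycling cells was at 74.4 against 40.0 CPM, 0.89 (0.21 to 1.60).

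Counted over the 4 classes, pairs of a member and a class past the fold by host were 5 higher and 5 lower. Receptors with 50 UMIs numbered 4 in Foxp3-positive, 3 in cycling, 2 in type 2 and 5 in other cells, and ligands 0, 3, 3 and 3. The higher pairs were Cd27, Tnfsf11 in cycling cells, Cd40lg in type 2 cells, and Cd27 and Cd40lg in other cells. The lower pairs were Tnfrsf9 in Foxp3-positive cells, Tnfsf8 in cycling and type 2 cells, and Tnfrsf9 and Tnfsf8 in other cells. In these classes 37.3% of genes were past the fold either way in Foxp3-positive, 33.4% in cycling, 34.9% in type 2 and 33.6% in other cells. In the same order 16.4%, 14.6%, 16.2% and 15.5% of genes were higher, and 20.9%, 18.8%, 18.7% and 18.2% lower. The pairs are a description of these libraries.

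The members were also set against RNA of Nr4a1, Nr4a2, Nr4a3, Egr1, Egr2 and Egr3, genes induced by antigen signalling, in non-cycling cells. Foxp3-positive cells past the cycling cut were left out here too. Cells with a UMI of these genes after thinning numbered 67 against 203 without in the WT host and 29 against 77 in the MARCH1-/- host. Both sets pool Foxp3-positive, type 2 and other cells, between which the ligands differ. Their class mix was not compared. In cells with it, Tnfsf11 was at 132 against 89.9 CPM in the WT host, 0.55 (0.04 to 1.05), and at 186 against 109 CPM in the MARCH1-/- host, 0.77 (0.12 to 1.41). Tnfsf8 was at 1081 against 846 CPM, 0.35 (0.19 to 0.52), and at 491 against 293 CPM, 0.75 (0.35 to 1.13). Both ligands were thus higher with antigen-signal RNA in each library, past the fold in the MARCH1-/- host, where 9.35% of genes were higher. Cd40lg was past the fold in the WT host instead, at 57.6 against 32.0 CPM, 0.85 (0.02 to 1.64), where 6.93% of genes were higher and 7.51% lower, and was at 130 against 114 CPM in the MARCH1-/- host, 0.18 (-0.57 to 0.89). Tnfrsf4 and Tnfrsf18 were within the fold in both, with log2 ratios of 0.02 and 0.17 in the WT host and 0.35 and 0.11 in the MARCH1-/- host. Cd27 was lower with antigen-signal RNA in the WT host, past the fold at 24.7 against 40.4 CPM (9 and 53 UMIs), -0.71 (-1.91 to 0.32), and at 124 against 99.9 CPM in the MARCH1-/- host, 0.31 (-0.47 to 1.05).

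Within single cells Tnfsf8 and Tnfsf11 were often found together. Of 89 WT host cells with a Tnfsf11 UMI, 87.6% also had Tnfsf8, against 61.4% of all cells. In the MARCH1-/- host it was 70.6% of 51 cells, against 44.9%. Of cells with Cd40lg, 82.7% and 63.0% had Tnfsf8, so this was not particular to Tnfsf11. Pairs were counted over all classes together, and Tnfsf8 and Tnfsf11 were both lowest in Foxp3-positive cells. Of the 37 WT host cells with Tnf, 21.6% had Cd40lg, against 21.3% of all cells, and of 14 in the MARCH1-/- host 35.7%, against 34.6%. Tnfrsf4 and Tnfrsf18, the neighbours on chromosome 4, were both found in 137 of 352 and 84 of 156 cells. Of cells with Tnfrsf18, 72.1% and 80.8% also had Tnfrsf4, against 59.9% and 72.4% of all cells. Deeper cells hold more UMIs of every gene, and these shares are not corrected for that. With cells thinned to equal depth, Tnfsf8 and Tnfsf11 were both found in 20 WT host cells, against 11.6 expected from each gene's share. For the MARCH1-/- host it was 4 cells against 2.33. Tnfsf8 and Cd40lg were both found in 9 thinned WT host cells against 6.91 expected, and in 0 against 1.33 in the MARCH1-/- host. Tnfrsf4 and Tnfrsf18 were both found in 26 thinned WT host cells against 12.1 expected. For the MARCH1-/- host it was 7 against 6.5, so little excess was seen there. These counts are small and the excess was not tested.

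Across the 8 groups of a class and a library, which share 2 libraries and differ in depth, the 10 pairs of receptors had Pearson's r of log2(CPM + 10) from 0.25 to 0.88. Pairs of a receptor and a ligand ran from -0.72 to 0.22. The value was 0.88 for Tnfrsf4 and Tnfrsf1b, 0.84 for Tnfrsf18 and Cd27, 0.72 for Tnfsf8 and Tnfsf11, and -0.72 for Tnfrsf4 and Tnfsf8. Among 2773 genes with at least 200 UMIs, those most like each member over the 8 groups were named by a set rule. For Tnfrsf4 they were Ifi209, Ifi47 and Arid4a (r from 0.96 to 0.95), for Tnfrsf18 Cd69, Cdc40 and Med10 (0.97 to 0.94), and for Tnfrsf9 Mxd1, Trpv2 and Crybg1 (0.96 to 0.93). For Tnfrsf1b they were Gimap3, Igtp and Icos (0.94 to 0.92) and for Cd27 Fth1 and Ube2r2 (0.98 and 0.97). For Tnfsf8 they were Ttc3, Vdr and Igfbp7 (0.97 to 0.96), for Tnfsf11 Kmt2a, Irf2bp2 and Eml4 (0.97 to 0.95), for Cd40lg Rab7, Zfr and Thoc1 (0.95 to 0.94) and for Tnf Il18r1, Aim2 and Kdm2b (0.94 to 0.90). With 8 points and this many genes, such values are a description only.

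Partners of the members on the same cells were mostly scarce. Tnfsf4, the ligand of Tnfrsf4, had 1 UMI in each library, and Tnfsf18, the ligand of Tnfrsf18, had 0. Tnfrsf11a and Tnfrsf11b, the receptor and decoy receptor for Tnfsf11, had 0 and 2 UMIs and 0 in either, and Cd40 had 1 and 0. Tnfrsf1a, the other TNF receptor, had 5 and 3. Tnfsf9, the ligand of Tnfrsf9, was at 12.4 and 12.1 CPM (32 and 19 UMIs), and Cd70, the ligand of Cd27, at 9.72 and 8.25 CPM (25 and 13 UMIs). Lta, which shares receptors with Tnf, was at 36.2 and 34.3 CPM. Tnfrsf8, the receptor for Tnfsf8, was at 16.7 CPM (43 UMIs) and 11.4 CPM (18 UMIs), a log2 ratio by host of -0.55 (-1.43 to 0.27). Its level was highest in Foxp3-positive cells, at 38.8 CPM (14 UMIs) and 35.5 CPM (8 UMIs), against 5.75 CPM (5 UMIs) and 6.05 CPM (2 UMIs) in other cells. The ligand Tnfsf8 had its lowest level in that same class.

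In the wider family, counts by host are set against 12.6% of all genes higher and 15.1% lower. Of 23 other receptor genes 4 had at least 50 UMIs, with 0 higher, 1 lower (Tnfrsf8) and 3 within the fold, and a median relative log2 ratio of -0.28. Of 14 other ligand genes 5 had, with 0 higher, 1 lower and 4 within, and a median of -0.33. The lower ligand was Fasl, the death ligand for Fas, at 20.9 against 29.2 CPM, -0.48 (-1.11 to 0.13). Of 22 adaptor and signalling genes 19 had, with 2 higher, 3 lower and 14 within, and a median of 0.04. Those 5 of 19 are a share near the 27.7% of all genes past the fold. By comparison the 5 receptor members had a median of 0.10 and the 4 ligand members -0.51, where the median over all genes is 0 by construction.

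Among the adaptors, Birc2, a ubiquitin ligase (cIAP1) of TNF receptor complexes, was at 77.4 CPM (122 UMIs) in the MARCH1-/- host against 27.2 CPM (70 UMIs) in the WT host, a log2 ratio of 1.51 (1.07 to 1.95). Traf5, an adaptor that binds OX40, CD27 and CD40 among others, was at 22.8 against 8.56 CPM (36 and 22 UMIs), 1.42 (0.61 to 2.25). Traf6, a ubiquitin ligase used by CD40, RANK and interleukin-1 and Toll-like receptors, was lower, at 17.8 against 44.0 CPM (28 and 113 UMIs), -1.31 (-1.96 to -0.70). Traf3, which restrains the non-canonical NF-κB pathway, was at 34.3 against 46.7 CPM, -0.45 (-0.94 to 0.03). Otulin, a deubiquitinase that removes linear ubiquitin chains, was at 66.0 against 87.5 CPM, -0.41 (-0.76 to -0.07).

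**Figure D5:**
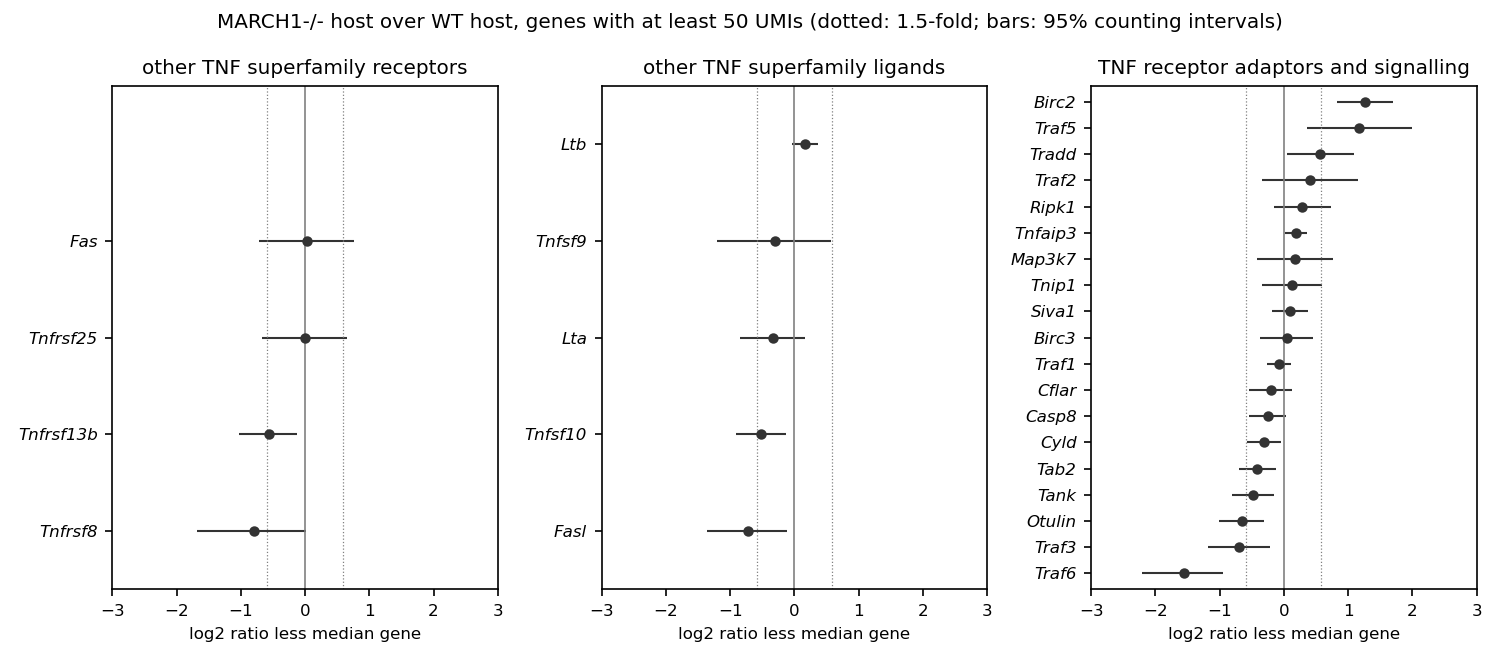
Log2 CPM ratio by host (MARCH1-/- over WT) in all cells, less that of the median gene (horizontal axis), for other receptor genes (left), other ligand genes (middle) and adaptor and signalling genes (right) with at least 50 UMIs. Lines are 95% counting intervals and dotted lines mark 1.5-fold. Birc2 and Traf5 lie above 1.5-fold, and Traf6, Traf3, Otulin, Tnfrsf8 and Fasl below it.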

How the data were processed

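The deposited files hold the authors' whole-number UMI counts per gene and barcode of 2 libraries, made with the 10x 3' kit (v3.1) per the labels' protocols. Counting used Cell Ranger 3.1.0 on mm10 per the submitters' processing notes, while per the file headers version 4 of the program wrote the matrices; the gene annotation behind the counts is not stated there. Coordinates come from GENCODE M21.

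Cells were barcodes with at least 500 UMIs, 250 genes and at most 10% mitochondrial UMIs: 352 of 223154 and 156 of 158635 barcodes, holding 2571048 and 1575581 UMIs. UMIs were summed per library and class, and CPM carry exact Poisson, ratios exact conditional binomial and shares Clopper-Pearson 95% intervals, all for counting error only. Cycling cells also needed 3 UMIs of the list. Thinning to 1000 UMIs (seed 1) left out 11 cells and 0. Doublets were kept in the main values. The 9 genes, the lists, the classes and the rule for named genes (the members, their partners, list genes past 1.5-fold by host and the 3 genes most like each member) were chosen with earlier results of these data known. Of the genes most like Cd27, 1 is not reported here. The ratio code was tested on simulated counts. Alternatives covered scaling, cell filters, doublets (Scrublet, expected rate 0.05, in scanpy 1.11.5), class cuts and class mix. The code ran in Python 3.11.15 with pandas 2.3.3, scipy 1.17.1, numpy 2.4.6 and, for plots, matplotlib 3.10.9.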

Additional observations from a re-analysis of the deposited data

Results flagged for a closer look

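Among cycling cells, the contrast of those with type 2 cytokine RNA over those without ran in opposite directions in the 2 libraries for 2 receptors, with counting intervals on either side of no difference; the difference itself was not tested. For Tnfrsf4 the log2 ratio relative to the median gene was 0.53 in the WT host (99 and 63 UMIs) and -0.61 in the MARCH1-/- host (84 and 131 UMIs), where 1 cell without type 2 cytokine RNA held 31 UMIs and 1 with it 28. For Tnfrsf9 it was 2.20 in the WT host (15 and 3 UMIs) and -1.19 or lower in the MARCH1-/- host (0 and 7 UMIs), the latter set at a floor of 3 counts.

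Barcodes over the mitochondrial limit, which no comparison used, also held transcripts of the 9 genes. They summed to 4015 CPM in 72 barcodes of the WT host (311 UMIs) and 2816 CPM in 25 of the MARCH1-/- host (84 UMIs), above the 38.7 and 101 CPM that a count of 0 allows, taken as 3 counts of the total. Tnfsf8 was at 2388 and 1374 CPM in them, lower in the MARCH1-/- host as in the cells. Cd40lg was at 116 CPM (9 UMIs) and 0 (0 UMIs, which allows up to 101 CPM). The higher level of the MARCH1-/- host cells was not seen in these barcodes, but so few UMIs set no direction.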

How the results depend on the processing

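By host over all cells, the 5 members past the fold kept their direction in all 65 alternatives tried. Where the ratio is relative to the median gene, Tnfsf8 ranged from -1.81 to -1.54, Cd27 from 0.92 to 1.24, Tnfrsf9 from -1.62 to -0.71, Tnf from -2.17 to -0.78 and Cd40lg from 0.07 to 1.25, the lowest Cd40lg value coming from 10 and 19 UMIs left after thinning. Without subtracting the median gene, Tnfsf8 was at -1.40. Thinning to 1000 UMIs left few members with 50 UMIs. Counts past the fold were then 0 higher (2 otherwise) and 1 lower (3), over the 4 classes 1 higher (5) and 2 lower (5), and, for classes over other cells in both libraries, 0 lower in Foxp3-positive (2), 0 lower in cycling (2) and 0 higher in type 2 cells (1). Without subtracting the median gene, 8 pairs of member and class were higher by host (5 otherwise). Members higher in Foxp3-positive than other cells in both libraries numbered 0, but 1 (Tnfrsf18) by the mean of per-cell CPM or with a type 2 cut of 1 UMI, 2 (Tnfrsf4, Tnfrsf18) with cycling assigned first, and 2 (Tnfrsf18, Tnfrsf1b) over all remaining cells. Members lower in cycling cells in both numbered 2, and 1 with a type 2 cut of 1 UMI. With 5 and 5 doublets removed, the count higher in type 2 cells was 0 (1 otherwise). Tnfrsf1b in type 2 over other cells of the WT host, -0.69, reversed to 0.49 when thinned. The causes were not tested. Comparisons over all remaining cells, without Foxp3-positive cells, without the 5 cells with the most UMIs of a gene and, for non-cycling Foxp3-positive over other cells, without the 1 cell with the most in each set were chosen after seeing the data. That last choice moved Tnfrsf4 in the WT host from 0.61 to 0.07, and gave no value for Tnfsf8 and Tnfsf11 in the MARCH1-/- host, where 0 UMIs were left. Leaving out the 5 cells moved Tnfsf8 in other cells by host from -1.55 to -2.35 and Tnfrsf4 in Foxp3-positive cells from 0.56 to 0.99. Subtraction of free RNA was not run, because its marker list had only 16 UMIs and 1 UMI in barcodes under 100 UMIs. No paired analysis was possible because each group is 1 library, and no replicate could be left out. At these depths Tnf (62 UMIs in all) and the ligands in Foxp3-positive cells are the least certain.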
